A study of Mus musculus with 14 samples.

Results

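The liver transcripts assembled in this study added 13439 coding transcripts to the mouse annotation, and 11605 of these belonged to 5019 genes that the reference already held. In 2688 of the 5019 genes exactly 1 coding transcript was added, and these 2688 genes and their transcripts are described here. They were chosen by the gene identifier, which is a plain number in genes of the reference, and by the number of added transcripts, with no expression value. The other 2331 reference genes received 2 or more added transcripts, 8917 in all. The samples were livers of male Apoe-deficient mice on a C57BL/6 background, aged 8 weeks at the start according to the labels. All animals ate a Western diet, which was given without additions to the control group. The other group received it with erythrodiol, a triterpene alcohol of olives, at an estimated dose of 10 mg/kg of mouse. Each group had 7 libraries, and each library came from RNA pooled from several mice. The labels give 8 weeks of diet and the study's methods a longer time. The absence of apolipoprotein E, which raises plasma cholesterol and favours fat accumulation in the liver, was shared by both groups.

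Most mammalian genes with introns make more than 1 transcript, because splice sites, exons and transcript ends can be used in alternative ways. The donor site is the start of an intron and the acceptor site its end, and nearly all introns begin with GT and end with AG. Short-read assembly joins reads across exon junctions into a model of a transcript, so that an added transcript is a prediction from the reads. A shifted site or a skipped exon whose length is not a multiple of 3 changes the reading frame when it lies in the coding part.

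Each group had 1 pooled expected count per gene, with a sum of 122889032 for control and 124686047 for erythrodiol over 17552 genes. The libraries held 34856340 to 55244294 clean reads for control and 47669656 to 48058606 for erythrodiol. Uniquely mapped reads made up 41.62% to 69.06% of the control libraries and 64.03% to 68% of the erythrodiol libraries. Genes found per library were 14500 to 15926 for control and 15267 to 15627 for erythrodiol. Transcripts found were 26483 to 34791 and 32370 to 33651, so the control libraries varied more. All 10 hepatocyte markers examined were present, from 11875 control counts upwards, which fitted the labelled tissue. The summed counts of 10 macrophage markers were 131950 for control and 89634 for erythrodiol, and those of 7 bile duct markers 15423 and 9960.45. In whole liver, fewer cells of a type and less RNA per cell cannot be told apart, and the part of these cells in the values below was not tested.

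The sequences of splice sites that an independent annotation lacks show what an added transcript adds. GENCODE release M21 on the GRCm38 assembly was used for this comparison. It is another annotation than the RefSeq set against which the transcripts were called added. The first set below is a selection of junctions with a splice site absent from GENCODE in the members named by rule, in order of counts, among those whose bases all lay in annotated exons. Each line gives the last 14 bases of the upstream exon in lower case and the first 14 bases of the downstream exon in capitals, so the capitals begin at the junction.
Rbp4: cgcggctcctgctgACTCCGGGGTGAGA
C8a: agtataatgagaagATATGGCTTCATGA
C4bp: cgggagttatgactCCCAGTCTAGGCTA
Scarb1: cccaagactctgagAATGTCCGCATAGA
Zbtb44: gatgacgatgacagCAGTACAGAGCGGC
Aldh1l2: tctgccatcaactgATGATGGTTTGGAT
The intron removed at these junctions was chr19:38124643-38124757 on the minus strand in Rbp4, the plasma carrier of retinol. It was chr4:104846134-104853741 on the minus strand in C8a, a component of the complement pore, and chr1:130635734-130636190 on the minus strand in C4bp, an inhibitor of complement. In Scarb1, the receptor for high-density lipoproteins, it was chr5:125304353-125326159 on the minus strand. It was chr9:31062126-31064229 on the plus strand in Zbtb44, a zinc finger protein, and chr10:83520386-83522701 on the minus strand in Aldh1l2, a mitochondrial enzyme of folate metabolism. The donor was the new end in Scarb1, both ends in C4bp, and the acceptor in the others.

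The second set shows acceptors that moved by 3 bases, the most frequent small shift among the members. It was chosen after the shift sizes were seen, from the cases with the highest counts. Capitals mark the 3 bases that belong to the exon in GENCODE and that the added transcript left out.
Cluh: atgatggcacagTAGaccctcgaagcc
Plxnb2: ctcaggatgcagTAGaggatgcaccca
Slc25a13: gcccagaggcagCAGaaggcctcgggt
Hyou1: cctgaggcccagAAGcccaatgagaag
Cluh binds messenger RNAs of mitochondrial proteins, Plxnb2 is a semaphorin receptor, Slc25a13 is the mitochondrial carrier of aspartate and glutamate, and Hyou1 is a chaperone of the endoplasmic reticulum. Of 48 such shifts whose bases could be read, the 3 bases left out were CAG in 32, AAG in 10 and TAG in 6, so that all 48 ended in AG.

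The transcripts of the 2688 genes were multi-exonic without exception, with a median of 10 exons (quartiles 6 and 16, range 2 to 115). Their median span in the genome was 24320.5 bases, from 687 to 1210384, and their median spliced length was 3318.5 bases. Only 96 transcripts had 2 exons, and 415 had at least 20. Transcripts of genes with 2 to 5 additions had a median of 13 exons and a median span of 32215 bases, and those of genes with 6 or more had 17 exons and 55777 bases. RefSeq listed a median of 5 transcripts for a member gene against 8 for genes with 2 to 5 additions and 15 for genes with 6 or more. The members therefore had the lowest medians of the 3 classes in exon number, span and RefSeq transcripts, as the plot of exon number and span shows.

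**Figure D1:**
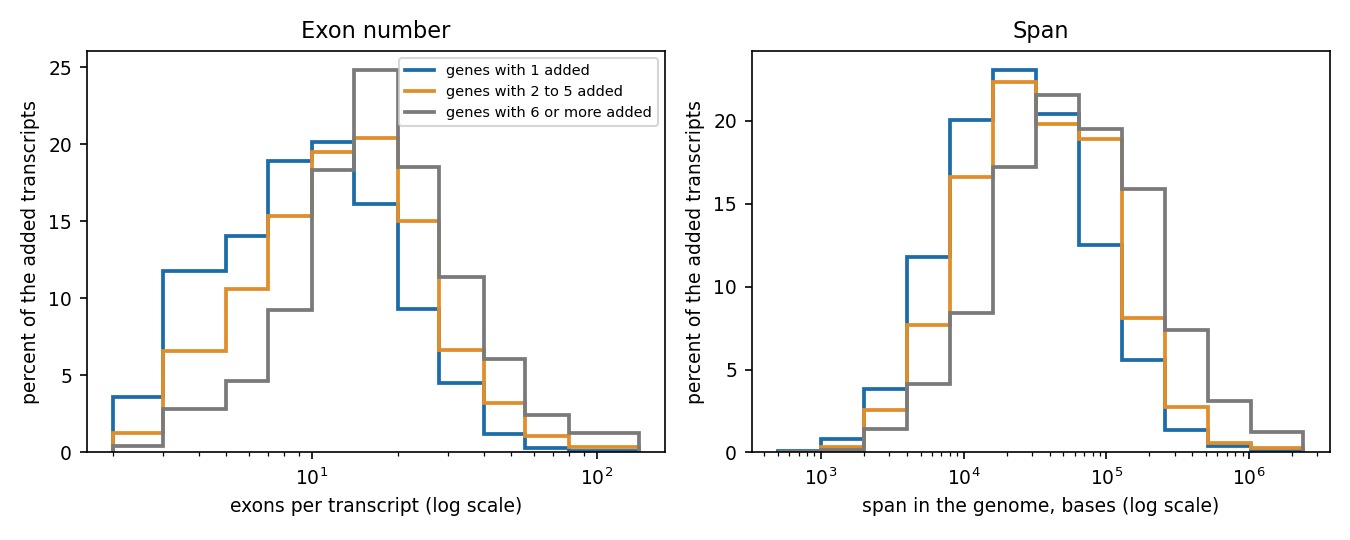
Percent of added transcripts (vertical axis) by exon number (left, log scale) and by span in bases (right, log scale), for genes with 1, with 2 to 5 and with 6 or more added transcripts. The medians go from 10 to 13 and 17 exons and from 24320.5 to 32215 and 55777 bases.

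The member transcripts with most exons were those of Syne2 with 115 exons, Herc2 with 92 and Prkdc with 86. Syne2 encodes a giant protein that ties the nuclear envelope to the cytoskeleton, Herc2 a very large ubiquitin ligase, and Prkdc the catalytic subunit of the DNA-dependent protein kinase. In Syne2 all 114 introns and in Herc2 all 91 were annotated one by one, but in other combinations. In Prkdc 1 of 85 introns was absent from GENCODE.

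The longest spans belonged to Park2 with 1210384 bases, Cdh12 with 1149543 and Astn2 with 761975. Park2 encodes a ubiquitin ligase for damaged mitochondria and Cdh12 a cadherin of neurons. The Park2 transcript had only 10 exons and left out a single exon of 62 bases, at an intron of 219280 bases (chr17:11635447-11854726). Cdh12 had no row in the count table. The shortest spans were 687 bases in LOC102638888, 808 bases in Bco2, a carotenoid-cleaving enzyme, and 849 bases in Guca1a, an activator of retinal guanylate cyclase. Each of these 3 had 2 exons.

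A total of 2591 members could be compared with GENCODE. The other 97 comprised 75 on sequences outside the assembled chromosomes and 22 without a matching gene on the same chromosome and strand. At least 1 intron was absent from the annotated transcripts of the gene in 1466 members, 56.6% (95% exact binomial interval 54.6% to 58.5%). Another 690 members, 26.6%, joined annotated introns in a combination that no annotated transcript held. In 265 members (10.2%) the intron chain was identical to a GENCODE transcript, and in 170 (6.56%) it was a stretch of one.

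New introns were a small part of each transcript. Of 29000 introns compared, 2099 (7.24%) were absent from the gene in GENCODE, and 1073 members had exactly 1 such intron. The remaining new introns were spread over 276 members with 2 and 117 members with 3 or more. Both ends were annotated sites in 359 of the 2099, only the donor was new in 649, only the acceptor in 591, and both were new in 500. A total of 2538 members shared at least 1 intron with GENCODE, and 53 shared none.

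The most frequent kind of new structure was counted as a shifted splice site, present in 850 members (32.8%). It covered any splice site absent from GENCODE in an exon that overlapped an annotated exon. An annotated site to measure the shift from was present for 457 of 581 such acceptors and 335 of 465 such donors. The others had none, as in Fgb, where the exon was joined to a new last exon. The same transcript can therefore count under several kinds. The acceptor was shifted in 549 (21.2%) and the donor in 440 (17%). A new first exon was found in 331 members (12.8%), a skipped exon in 309 (11.9%), a retained intron in 269 (10.4%), a new internal exon in 195 (7.53%) and a new last exon in 157 (6.06%). New pairings of annotated sites with no exon between were present in 35. A single kind was found in 1638 members (63.2%), against 55.3% of the transcripts of genes with more additions.

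Genes with more additions had more of nearly every kind. A skipped exon was found in 14.6% of transcripts of genes with 2 to 5 additions and in 21.8% of those of genes with 6 or more, and a new internal exon in 12% and 17.3%. Retained introns were an exception, at 11% and 9.91%, with intervals that overlap that of the members (9.23% to 11.6%). The share of known introns in another combination was 26% and 26.2%. These intervals cover counting error only, and transcripts of 1 gene share exons, so no test of the differences was made.

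**Figure D2:**
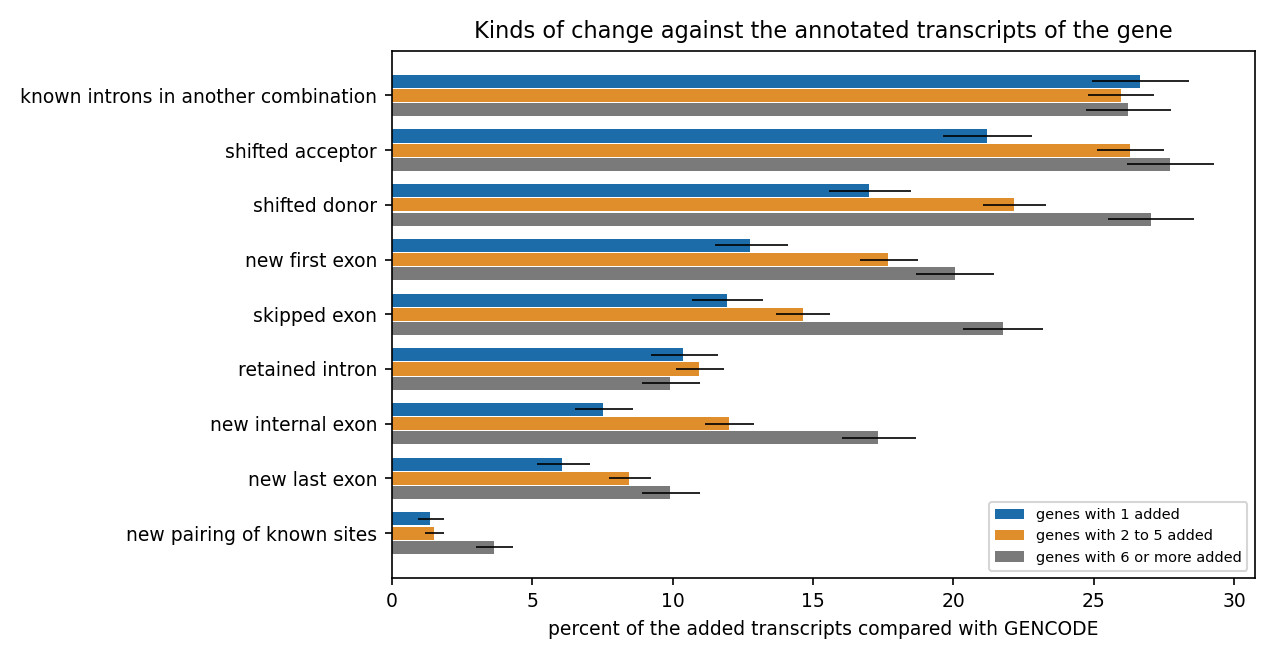
Percent of added transcripts compared with GENCODE (horizontal axis) that carry each kind of change, for genes with 1, 2 to 5 and 6 or more additions; lines are 95% exact binomial intervals. Known introns in another combination lie near 26% in all 3 classes, and skipped exons go from 11.9% to 21.8%.

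The size of the shifts had a sharp pattern. Of 457 shifted acceptors with an annotated acceptor in the same exon, 71 (15.5%) moved by exactly 3 bases, 50 of them into the exon and 21 out of it. Acceptors moved by 4 bases in 25 cases, 23 of which shortened the exon. Donors behaved otherwise, with 4 of 335 moved by 3 bases (1.19%) and 29 by 4 bases (8.66%). Both features, acceptors in tandem at 3 bases and donors in tandem at 4, are well known from other mammalian transcripts. Genes with more additions had shares close to these, 17.1% of acceptors at 3 bases and 7.35% of donors at 4.

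Donor pairs at 4 bases included the following, shown because they carry the other common shift. Capitals mark the 4 bases of the annotated exon that the added transcript left out.
Coq8b: taggccccactgGTGGgggccatgtagg
Jak3: ggacagcctggaGTGGcacgagaacctg
Galnt10: gacgcacagcgcGTAGgatatggagaac
Coq8b takes part in coenzyme Q synthesis, Jak3 is a kinase of cytokine receptors in lymphocytes, and Galnt10 starts the sugar chains of mucin-type glycoproteins. Of 10 such donor shifts that could be read, 8 began with GT in the bases left out. The others were Slco2b1 with GCAA and Rufy2 with GCGA, and Slco2b1 had the highest counts, at 38824. Neither is printed, so the lines above show GT cases only.

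**Figure D3:**
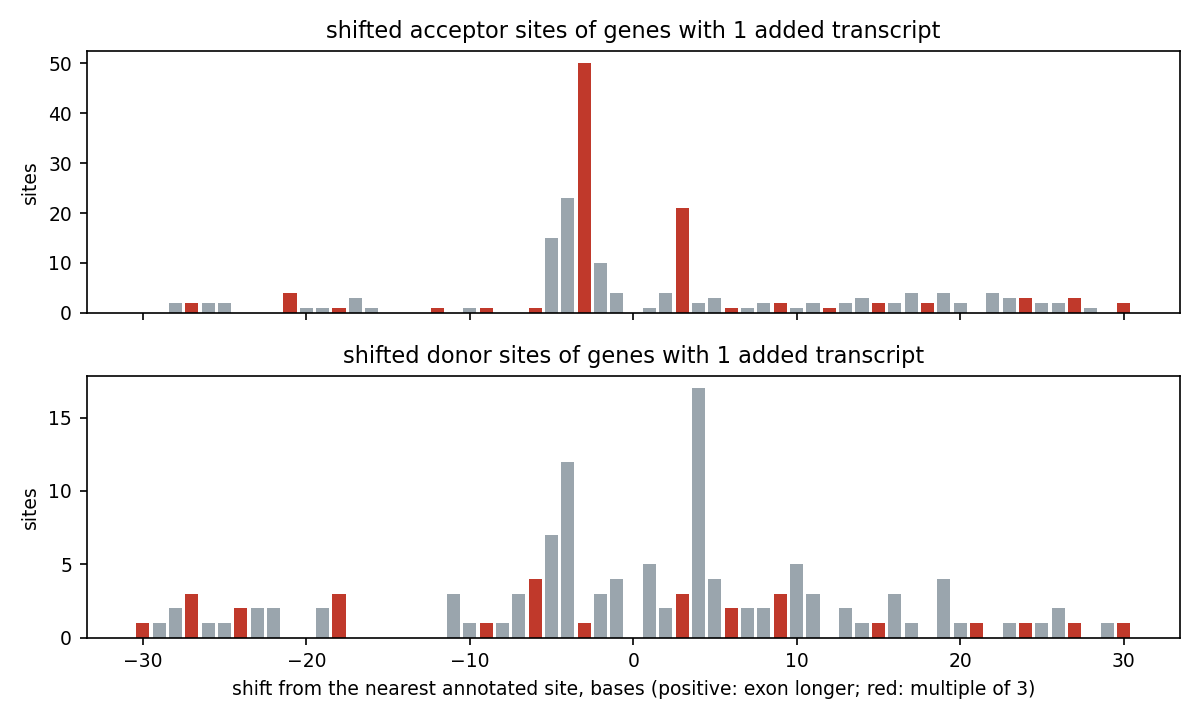
Number of shifted acceptor sites (top) and donor sites (bottom) of the members by distance from the nearest annotated site in bases; positive values lengthen the exon and red bars are multiples of 3. Acceptors peak at -3 with 50 sites and donors at 4 bases on either side, with 12 and 17 sites.

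The letters next to the new sites could be read where these lay inside an annotated exon. There were 1091 new acceptors and 1149 new donors in all, and most of them could not be read. AG preceded the exon at 346 of 374 readable new acceptors, 92.5% (95% exact interval 89.4% to 95%), and GT followed the exon at 238 of 283 readable new donors, 84.1% (79.3% to 88.2%). Another 14 donors had GC, a rare but known donor. Annotated sites of the same transcripts that also lay inside exons of other transcripts had AG in 99.7% of 3707 cases and GT in 98.5% of 4035. The intervals of new and annotated sites did not overlap for either letter pair, and no test was made, since sites of 1 gene are not independent.

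Skipped exons were mostly single. Of 324 skips, 275 left out 1 exon, with a median length of 112 bases, and 97 of these lengths (35.3%) were multiples of 3. Among 28706 whole internal coding exons of the same genes the share was 40% and the median 122 bases. The skipped exons could come from any annotated transcript, also from non-coding parts, so these sets are not alike. The skipped exons of genes with more additions were multiples of 3 in 43.3% of 730 cases. The skips are exemplified by Acaa1a, a thiolase of peroxisomes, Lpin2, a phosphatidate phosphatase, Prdx4, a peroxiredoxin of the endoplasmic reticulum, and Car11, a protein related to carbonic anhydrases. The Lpin2 skip left out 2 exons of 398 bases together, and each of the others a single exon. The new junctions are shown with the capitals starting at the downstream exon.
Lpin2: ccaaggagaaagtgAGGATCTTCAAATG
Acaa1a: ggccaacattgctgGGTGGAGTCCATGT
Prdx4: caagcatggagaagATAATCCCAGATCC
Car11: actgggagcggcagGGCCTCCCTTCTGG
The introns were chr17:71215165-71229307 in Lpin2 and chr9:119344253-119346469 in Acaa1a, both on the plus strand. They were chrX:155324029-155328445 on the minus strand in Prdx4 and chr7:45700340-45701223 on the plus strand in Car11.

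Reading from an annotated start codon was possible for 1756 members, and in 1 of them no stop was met before the end. The coding sequence of an annotated transcript was kept whole in 644 (36.7%), and in 263 (15%) start and stop were kept with a change between. Another stop was met more than 50 bases before the last junction in 740 (42.1%, 95% exact interval 39.8% to 44.5%), a place that in general marks a transcript for nonsense-mediated decay. Whether these transcripts were degraded was not tested. Their reading frame held a median of 32.7% of the annotated codons, and the stop lay a median of 865.5 bases before the last junction. In genes with 2 to 5 additions the share with such a stop was 42.6% and in those with 6 or more 38.8%. Transcripts that kept an annotated stop were not counted in these shares, wherever that stop lay. A kept stop can also lie more than 50 bases before the last junction, as in Cat at 759 bases.

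The outcome for the reading frame differed among kinds of change, which is given as a description. Among members whose only change was a skipped exon, 128 of 209 (61.2%) met an early stop of this kind, and 46 (22%) kept start and stop. With a shifted acceptor alone the early stop was met in 54.9% of 175, and with a new first exon alone in 11.5% of 61, of which 77% kept an annotated coding sequence. In Hyou1 the shift of 3 bases changed the reading frame from 999 to 998 codons. Sec63, a helper of the protein channel of the endoplasmic reticulum, met a stop after 43 of 760 codons, and Sf3b1, the core subunit of the spliceosomal SF3b complex, after 185 of 1304. Another 505 members had bases outside annotated exons in the frame and 317 lacked an annotated start codon, so their frames were not read.

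The ends of the added transcripts lay close to annotated ends. The distance to the nearest GENCODE start had a median of 28 bases, and 498 of 2591 members (19.2%) began at the same base. At the other end the median distance was 2 bases, and 1074 members (41.5%) ended at the same base. Starts more than 1000 bases away were found in 331 members and ends that far in 277.

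New last exons fell into a pair of classes by the donor they were joined to. Of the 157, 65 were joined to an annotated donor and 92 to a donor that GENCODE lacks. The first class had a median exon length of 417 bases and none of at most 27 bases, whereas the second had a median of 210.5 bases and 30 exons of at most 27 bases. In 11 members such a short exon lay beyond an intron of more than 10000 bases. The transcript of Fgb, the beta chain of fibrinogen, ended in an exon of 16 bases (chr3:83005181-83005196) behind an intron of 37052 bases. That of Cat, catalase, ended in 15 bases (chr2:103358893-103358907) behind 95089 bases, and that of Cyp2c29, a cytochrome P450, in 10 bases (chr19:39344381-39344390) behind 13730. Tpi1, Atp5c1, Rpl11 and Rpl34 had last exons of 23, 22, 26 and 15 bases. These 4 encode an enzyme of glycolysis, a subunit of ATP synthase and a pair of ribosomal proteins.

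The short distant last exons lay mostly in abundant genes. When the genes with at least 100 counts were ordered into 5 classes of equal size by counts, 7 of these 11 were in the highest class, which held 476 compared members, and 2, Ube2s and Tmem160, in class 3 from the lowest. The other 2, Tmem158 and Cd96, had 95 and 88 counts and were in no class. These 4 were named after their values were seen. Last exons joined to a donor absent from GENCODE were found in 31 members (6.51%) of the highest class and in 10 (1.91%), 19 (2.95%) and 13 (2.25%) of classes 2, 3 and 4. In the lowest class they were found in 9 of 272 (3.31%). The number of reads behind each junction was not examined here, and its part in this distribution was not tested.

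In 46 members (1.78%) the added transcript used splice sites of another gene on the same strand, against 3.58% of transcripts of genes with more additions. Cases in which the other gene bore the same symbol were left out for the members only, so the shares were not counted alike. The members' pairs included neighbours and close relatives. The transcript of Tomm40, the channel of the outer mitochondrial membrane, ran over 19186 bases (chr7:19696244-19715429) and used splice sites of Apoe, the gene that is disrupted in these mice. The transcript of Cyp2j9 ran into Cyp2j5, that of Cyp4a10 used sites of Cyp4a31, and that of C1ra, a serine protease of complement, used sites of C1rb. The serpins Serpina1b and Serpina1c were joined with Serpina1d and Serpina1e, and the beta globin Hbb-bs with Hbb-bt. Gm21320, a gene of the major urinary protein cluster, spanned 163149 bases and used sites of Mup11 and Mup12. Reads of such near-identical copies may be assigned to any of them, so these joins and the counts of these genes are uncertain.

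Genes with a single addition were well expressed. Their added transcripts were assembled from reads of these same libraries, so the counts are not independent of the addition itself. Of the 2688 members, 2676 had a row in the count table, and 2582 of these (96.5%) had at least 100 counts in the groups together, against 67.9% of genes with no addition. The 12 without a row were Dnah7a, Thsd7b, Mybph, Rag2, Prn, Cfap57, Csmd2os, Gadl1, Otop2, Gm272, Rnf212b and Cdh12. Median counts were 4116 in members, 865.38 in genes with no addition, 4476.32 in genes with 2 to 5 and 3888.88 in genes with 6 or more. At least 100 counts were found in 95.4% of genes with 2 to 5 additions and in 87% of those with 6 or more. The median gene length was 2906.5 bases in members and 2495 bases in genes with no addition. By class of counts, members made up 10.6% of the lowest class, 24.9% of class 3 and 18.5% of the highest.

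The counts are those of whole genes, so they do not measure the added transcript itself. Members took 22.8% of the control counts and 21.8% of the erythrodiol counts. Per 1000 bases of gene length, the highest levels belonged to the major urinary protein genes Gm21320, Mup7, Mup14 and Mup3, which encode pheromone carriers excreted in urine, with 3212045, 2038111, 1512125 and 1127334 counts per 1000 bases in the control group. The levels in the erythrodiol group were 1920932, 1083934, 817632 and 680628. Their log2 ratios of erythrodiol to control, scaled by the group totals, lay between -0.93 and -0.75. The copies of this family share reads, and these values are uncertain for any one of them.

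Serpina1c, Ttr, Serpina1b and Gstp1 followed. Ttr, the plasma carrier of thyroid hormone and retinol-binding protein, had 502727 counts per 1000 bases with control diet and 578340 with erythrodiol (log2 ratio 0.18). Serpina1c and Serpina1b, copies of alpha-1-antitrypsin, had log2 ratios of 0.15 and -0.05, and Gstp1, a glutathione transferase, had 0.38.

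The comparison of the diets asks whether erythrodiol changed the level of these genes in liver. With 1 pooled count per group there is no replicate check and no test, and a gene is called here when its ratio passed 2-fold. Of 2582 members with at least 100 counts, 4 (0.155%) were 2-fold higher and 12 (0.465%) 2-fold lower with erythrodiol. Over all 13291 genes the shares were 0.218% higher and 0.549% lower, or 0.767% in either direction. The members' share past 2-fold was 0.620%, near that background. The median log2 ratio was 0.21 in members and 0.16 over all genes, and 2413 members lay within 0.5 of the latter. Scaled to the median of all genes, 4 members (0.155%) were higher and 27 (1.05%) lower, beside 0.0903% and 1.03% of all genes. This scaling lowers every log2 ratio by 0.16, and those of Serpina1c, Scd1, Cyp2c29, C8a and Cd4 given here then fall below 0. With no minimum of counts 11 members (0.411%) were higher and 29 (1.08%) lower, beside 4.62% and 5.33% of 17497 genes, and with at least 1000 counts 2 (0.0890%) and 5 (0.223%), beside 0.0979% and 0.342%. Genes under 100 counts made up 94 of the 2676 members in the table, a smaller share than among genes with no addition.

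Aldh1l2 had 171 counts in control and 469 with erythrodiol, a log2 ratio of 1.43 and a ratio of 2.70 (95% counting interval 2.26 to 3.24). Noct, a clock-controlled nicotinamide nucleotide phosphatase known as nocturnin, had 1237 and 3128 counts (log2 ratio 1.32). Cyp7a1, the rate-limiting enzyme of bile acid synthesis, had 11875 and 28636 counts (log2 ratio 1.25, ratio 2.38, interval 2.33 to 2.43). Car11 had 47 and 111 counts (log2 ratio 1.21). These 4 were above 2-fold under both scalings. The next in order, Cabyr and Plk3, had log2 ratios of 0.95 and 0.91 and did not reach 2-fold. The counting intervals hold no spread between mice or libraries.

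The lowest ratio was that of Cyp2b13, a cytochrome P450 of steroid and drug metabolism, with 335.85 and 27.02 counts (log2 ratio -3.63, ratio 0.0806, interval 0.0514 to 0.117). Its relative Cyp2b9 had 6014.93 and 1523.98 counts (log2 ratio -2.0). Reads of the Cyp2b copies may be shared. Both genes are among those that the study also measured by RT-qPCR in individual mice. There it reported a significant change for Cyp2b9 and none for Cyp2b13. Rpl22l1, a paralogue of a ribosomal protein, had 4324 and 1391 counts (log2 ratio -1.66). Vmn2r3, a vomeronasal receptor, had 105 and 35.88 counts, Sult2a7, a sulfotransferase, 160 and 55, and Tspan8, a tetraspanin of epithelia, 337 and 133. The other 6 past 2-fold, named after their values were seen, were Fpr2, Mup12, Rab19, Plekhh1, Clec4n and Fgl1, with log2 ratios from -1.18 to -1.03. Fpr2 and Clec4n are receptors of myeloid cells, and the macrophage marker sum given above was lower as well, whose part in these values was not tested.

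**Figure D4:**
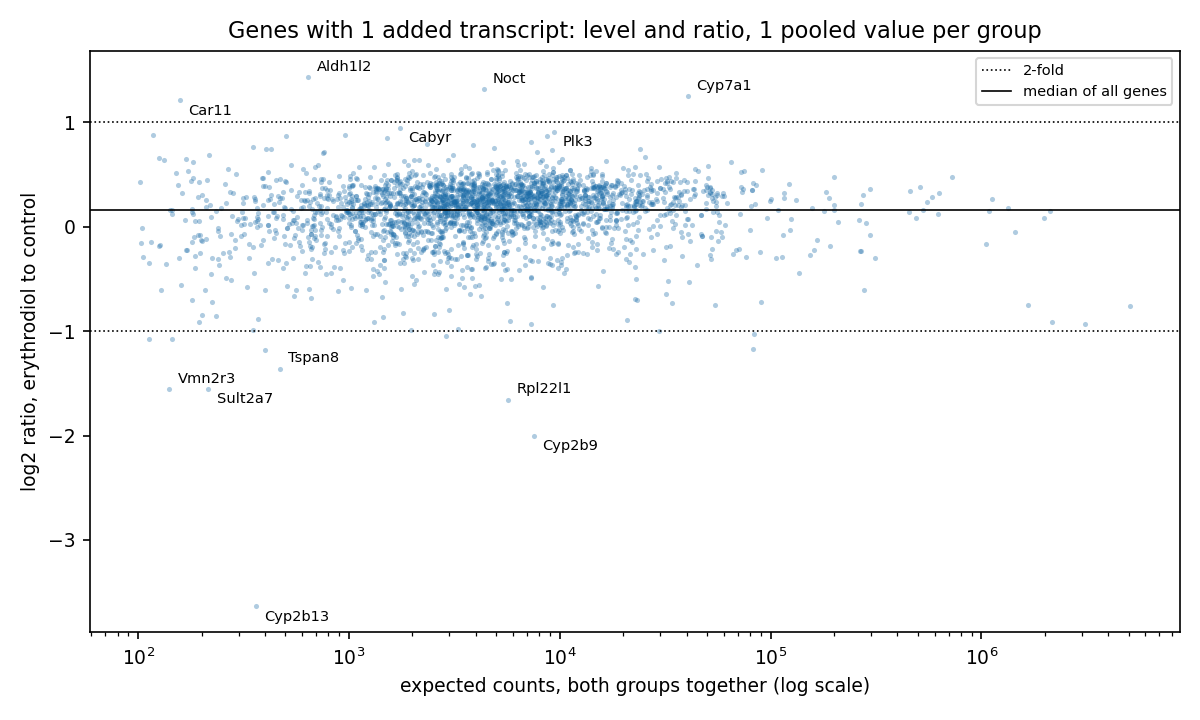
Log2 ratio of erythrodiol to control (vertical axis) against expected counts of both groups together (horizontal axis, log scale) for the 2582 members with at least 100 counts; each point is a gene, with 1 pooled value per group and no error. Dotted lines mark 2-fold and the solid line the median of all genes at 0.16; 4 members lie above and 12 below the dotted lines.

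The structures of the most changed members were of several kinds. The Cyp7a1 transcript had a new last exon of 797 bases (chr4:6264113-6264909) behind an intron of 2261 bases and kept the annotated coding sequence. Those of Cyp2b13 and Cyp2b9 also kept it, with 1 new intron of 9 each. The kept stop lay 1041 bases before the last junction in Cyp7a1, 3646 in Cyp2b9 and 18 in Cyp2b13. Noct and Sult2a7 had the intron chain of a GENCODE transcript. Aldh1l2 had a shifted acceptor and an early stop, and Rpl22l1 annotated introns in another combination with an early stop. By relation to GENCODE, the median log2 ratio was 0.19 in members with a new intron, 0.23 with annotated introns in another combination, 0.21 with a stretch of an annotated chain and 0.16 with an identical chain.

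Several groups of liver genes were examined for how many of their genes had exactly 1 addition, beside 19.4% of all genes with at least 100 counts. Of 63 listed cytochrome P450 genes 20 were members (31.7%), 7 had more additions and 36 none. Among the 18 listed with at least 100 counts the median log2 ratio was -0.01, from -3.63 in Cyp2b13 to 0.87, and 2 were past 2-fold, both lower. The list leaves out Cyp7a1, a cytochrome P450 and member with a log2 ratio of 1.25, which was counted with the bile acid and hepatocyte genes. The most abundant were Cyp2c29 with 139473 and 144578 counts, Cyp2d26 with 91540.74 and 107515.09, Cyp2c50 with 100814.63 and 89976.35, and Cyp2a5 with 84645.94 and 103895.43. These are drug and steroid oxidising enzymes of hepatocytes, with log2 ratios of 0.03, 0.21, -0.19 and 0.28 in this order.

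Of 34 complement genes 11 were members (32.4%), and of 30 genes of lipogenesis 10 (33.3%). The complement members had a median log2 ratio of 0.24, beside 0.03 for the whole list, and ranged from -0.43 to 0.33, with Hc, complement component C5, at 121301 and 152121 counts (0.31), C8a at 0.16 and C4bp at -0.22. The lipogenesis members had a median of 0.11, beside 0.29 for the whole list, and ranged from -0.37 to 0.74. Scd1, the stearoyl-CoA desaturase, had 957594.72 and 1028748.43 counts (0.08), Elovl5, a fatty acid elongase, had a log2 ratio of 0.33, and Lpin2 had 0.62. None of the complement or lipogenesis members passed 2-fold. Only 3 of 28 cholesterol synthesis genes were members (10.7%), among them Dhcr7 with a log2 ratio of 0.65 and Lss with 0.63, which encode enzymes of sterol synthesis. The median of the whole list was 0.50.

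Smaller shares of members were found among subunits of oxidative phosphorylation with 9 of 79 (11.4%), and among cytosolic ribosomal proteins with 10 of 80 (12.5%). Their members had median log2 ratios of -0.44 and -0.30, beside -0.28 and -0.38 for the whole lists. Splicing factors had 16 members of 94 (17%) and 35 genes with more additions. The members included Sf3b1 with 14282 and 17118 counts, and Ptbp1, a repressor of exon inclusion, with 12897.85 and 16908.39. The list of endoplasmic reticulum chaperones and the unfolded protein response had 8 members of 36 and no gene with more additions, with a median log2 ratio of 0.41, beside 0.23 for the list.

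The remaining lists were close to the background share or small. Urea cycle and amino acid catabolism had 13 members of 52, with Tdo2, which degrades tryptophan, at 166714 and 111317 counts (-0.60), Hpd, of tyrosine breakdown, at 0.22 and Arg1, arginase, at -0.13. Bile acid synthesis and transport had 7 of 27, with the uptake carrier Slc10a1 at 0.18. Glycolysis and gluconeogenesis had 9 of 35, phase II conjugation 9 of 56, nuclear receptors and coregulators 8 of 44, coagulation 8 of 38 and antioxidant enzymes 8 of 38. Acute phase and plasma proteins had 7 of 36, fatty acid oxidation 5 of 29, lipoproteins and their receptors 4 of 30 and the circadian clock 4 of 24. Of the lists other than those of cytochrome P450, bile acid and hepatocyte genes, none held a member past 2-fold. Both macrophage marker genes that were members, Clec4f with 19293 and 12507 counts and Adgre1 with 5786 and 3487, had log2 ratios of -0.65 and -0.75, short of 2-fold. Among the other marker lists, Pdgfrb of stellate cells and Cd4 of lymphocytes were members, at 0.19 and 0.14, and the bile duct and sinusoidal endothelial lists held none.

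In the functional annotation deposited with the counts, 206 biological processes held at least 50 genes with at least 100 counts. The share of members ranged from 9.38% to 32.1% with a median of 20%. Transcription had 223 members of 983 genes (22.7%), protein phosphorylation 73 of 252 (29%) and innate immune response 64 of 245 (26.1%). Their median log2 ratios were 0.27, 0.28 and 0.13, close to those of all genes of the same process at 0.25, 0.25 and 0.07. By chromosome the share of members went from 15.6% to 22.4%.

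A total of 6 members had a splicing event in the deposited list of differential events, which counts reads for and against inclusion in every library. The list had been chosen by the study for a difference between the groups, so the values are a description and no test was made. In Zbtb44 the event was the tandem acceptor shown above, in which the exon begins at 31064230 or 3 bases later at 31064233 on chromosome 9, and the added transcript carried the longer form. Inclusion counts of the longer form in control libraries were 0 in 5 libraries, 1 and 5, with counts of the shorter form from 1 to 9. In erythrodiol libraries they were 1 to 7 (median 3), with 0 to 5 for the shorter form. The share of the longer form was 0% to 35.7% in control and 16.7% to 100% in erythrodiol libraries, and the groups overlapped.

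In Osbpl8, a lipid transfer protein at membrane contacts, the exon began at 111233553 or at 111233562 on chromosome 10, and the added transcript was in the longer form. The longer form had 1 to 23 counts in control libraries (median 11) and 7 to 22 in erythrodiol libraries (median 15). The shorter form had 0 to 2 (median 0) and 0 to 10 (median 4). Its share was therefore higher with erythrodiol by the medians, and the groups overlapped.

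Kansl2, a subunit of a histone acetyltransferase complex, left out an exon of chromosome 15 (98531323 to 98531529), and its added transcript was in the skipping form. Skipping counts were 0 or 1 in control libraries and 0 to 8 in erythrodiol libraries (median 4). The median share of inclusion was 97.2% and 91.1%, with overlapping groups. Spata2l and Zmym6 had an intron that was retained in nearly all counts, with median shares of 100% and 100% in control and 93% and 97.6% in erythrodiol libraries, and counts against retention of at most 8.

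The Hc event had the deepest counts, with 59 to 838 for the retained intron in control libraries and 571 to 1011 in erythrodiol libraries. The median share was 52.5% and 57.3%. In the control group 2 libraries had inclusion counts of 59 and 62 with shares of 13.1% and 8.83%, whereas the other 5 were at 48.2% to 54.3%. Without these 2 libraries the control median was 52.7%. The tables do not name the libraries. The groups overlapped with and without them.

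**Figure D5:**
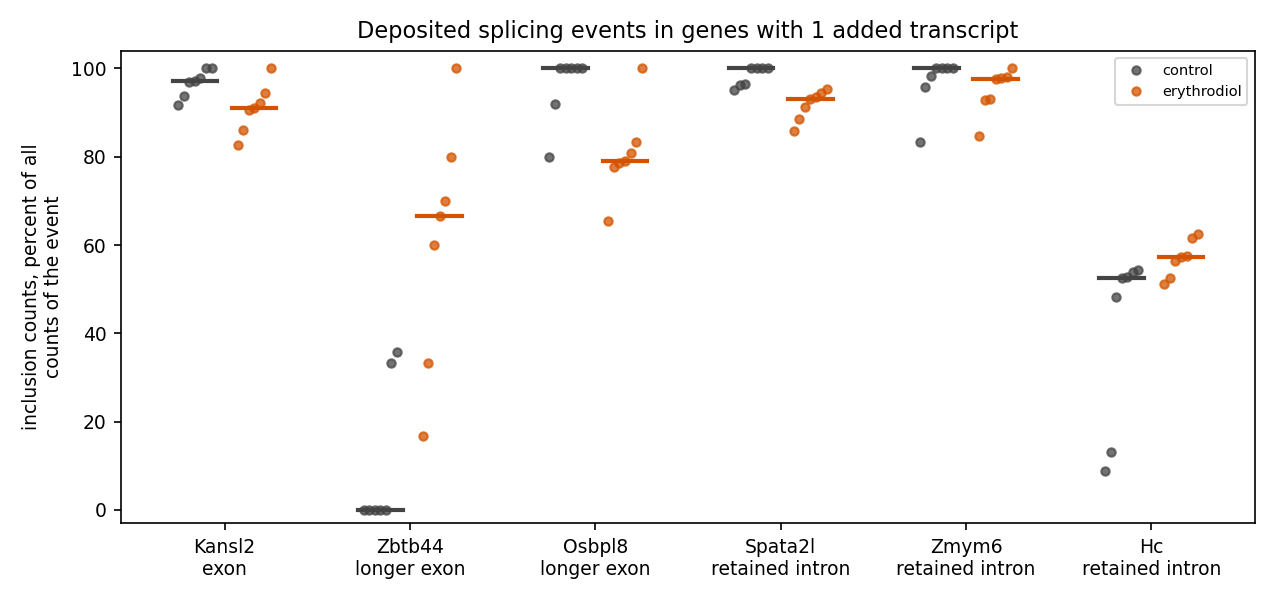
Inclusion counts as a percent of all counts of the event (vertical axis) for the 6 members with a deposited splicing event; each point is 1 of 7 libraries of a group and the bar is the median. In Hc a pair of control libraries lies below 20%, and in all 6 events the ranges of the groups overlap.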

How the data were processed

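RNA pooled from livers was sequenced by the authors on a BGISEQ-500 in 14 libraries, 7 per diet. Per the study's methods and the submitters' notes, reads were aligned with HISAT, assembled with StringTie, compared with the RefSeq annotation with Cuffcompare of Cufflinks, and judged for coding potential. Genes were quantified with Bowtie2 and RSEM, and splicing events were called with rMATS. The authors deposited expected counts per gene as 1 pooled value per group, with fold changes, p-values and q-values from their own comparison, which were not used. Read counts and transcript counts per library, and the percent of reads mapped uniquely, were deposited by the authors as summaries. Splicing events were deposited with inclusion and skipping counts of 7 unnamed libraries per group, as a list filtered for a difference.

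The members, gene lists and comparisons were chosen with earlier results of these data known. Exons were joined by transcript and compared with GENCODE M21 (GRCm38) by gene, strand and exact intron ends in Python 3.11.15 with pandas 2.3.3 and scipy 1.17.1. Reading frames were read from annotated start codons through GENCODE transcript sequences, from which all printed letters also come. Log2 ratios of erythrodiol to control were computed from expected counts plus 0.5, scaled by the group totals, where the groups together held 100 counts or more, and were called past 2-fold. Intervals are 95% exact binomial or exact conditional intervals and cover counting error only. The scripts were tested on simulated data.

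Genes were named by a rule. It took the 8 highest in counts per 1000 bases, the 3 with most exons, longest and shortest span, the 6 highest and 6 lowest log2 ratios, up to 4 of the most abundant members of each of 25 gene lists, members with a deposited splicing event, and members that the study measured by RT-qPCR. Sequences printed are a selection from these. Genes shown for small shifts, for short last exons and for sites of another gene were added after their values were seen. Alternatives covered the count minimum, the pseudocount, the scaling, the reference transcripts and the matching of intron ends. Variant tables, summaries of all splicing events and of gene mapping were not used. Values of some genes are not reported here.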

Additional observations from a re-analysis of the deposited data

Results flagged for a closer look

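Among 32 sets of 7 library values, 24 of them counts of the members' splicing events and 8 summary measures of the libraries, 2 had a library far from the others by Dixon's criterion (limit 0.568 of the range). For independent values with a normal distribution, chance gives about 1 such set in 20. Most of these sets are counts of splicing events, some of them small, for which that rate need not hold. In Zbtb44 the control library with the most inclusion counts had 5, the nearest had 1, and the gap was 0.8 of the range. In Zmym6 the erythrodiol library with the most inclusion counts had 64, the nearest had 49, and the gap was 0.625 of the range. The libraries are unnamed in these tables.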

How the results depend on the processing

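Of the values under alternatives, 21 moved and 17 stayed near those reported. Without a count minimum 11 members (0.411%) were 2-fold higher and 29 (1.08%) lower, beside 4.62% and 5.33% of all genes. With at least 1000 counts 2 (0.0890%) were higher and 5 (0.223%) lower, beside 0.0979% and 0.342%, with a median log2 ratio of 0.22. Scaling to the median gene gave 27 (1.05%) lower, beside 1.03% of all genes, and a median of 0.0447. It changed the sign of the log2 ratio in 13 of the 106 genes named by rule that have one, all of which were positive before. Centring on genes of like length gave a median of 0.0248. Members with an intron absent from GENCODE made up 51.3% with matches within 10 bases, and 80.6% when only transcripts paired with a curated RefSeq accession were the reference. Against those, the shares were 18.3% for skipped exons, 29.97% for shifted acceptors, 24% for shifted donors, 22.7% for new first, 8.38% for new last and 16.7% for new internal exons. They were 12.8% for retained introns, 9.0% for annotated introns in another combination and 0.814% for new pairings. A reference stop was kept in 40.5% with the longest coding transcript as the only reference. The ratio of median gene length of members to genes with no addition was 1.16, and 1.10 from 100 counts upwards. The cause of these shifts was not tested, except that fewer genes or reference transcripts entered by construction.

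No paired analysis was possible because each group has 1 pooled count per gene and the splicing tables do not name their libraries. Leaving out single replicates was not possible for the gene counts, and for the splicing events it was done only for Hc, whose control median was 52.7% without 2 libraries. The letters of new sites were readable only inside annotated exons, and the share of GT-AG ends over all new introns was not run. Leaving out the major urinary protein genes and short introns were alternatives chosen after seeing the data, and the values stayed near those reported. The depth of single junctions of the added transcripts is unknown, and no level of an added transcript is given.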
